A study of Mus musculus with 28 samples.

Results

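The mitochondrial ribosomal protein genes were taken as the genes whose symbol was Mrpl or Mrps followed by a number and at most 1 letter. Of the 55450 genes in the expression table, 78 met this rule, 49 with an Mrpl and 29 with an Mrps symbol. All 78 had a mean of at least 0.1 TPM, a per-length share of a library's transcripts, and were among the 16415 genes tested. Genes of the family named as pseudogenes, 5 in number, were not members. By the known structure of the mammalian mitoribosome, 51 members belong to the large subunit, among them Mrps18a and Mrps30 in spite of their symbols, and 26 to the small subunit. Mrps36, the remaining member, is known as a part of the 2-oxoglutarate dehydrogenase complex rather than of the ribosome.

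Mitochondria carry their own ribosomes, which translate the few messenger RNAs of the mitochondrial genome, all of them for subunits of the respiratory chain and the ATP synthase. The ribosomal RNAs come from mitochondrial DNA, whereas every ribosomal protein is encoded in the nucleus, made in the cytosol and imported. Some of these proteins have bacterial counterparts and others arose in mitochondria, and cells that grow and divide must build these ribosomes anew. Of the members, 47 were listed with a bacterial counterpart.

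The 12 RNA-seq libraries come from C10, a single mouse Pre-B cell line that carries in every library an inducible transgene, C/EBPαER, in which the rat myeloid factor C/EBPα is fused to the hormone-binding part of the estrogen receptor. The 3 biological replicates at 0h were not induced. Those at 1h, 12h and 48h, 3 at each, were induced with 100 nM β-estradiol in medium with IL-3 and CSF-1, so that hormone, cytokines and time in culture cannot be told apart in any comparison with 0h. Promoter Capture Hi-C, which counts contacts of promoter fragments with the rest of the genome, was used as 1 list of contacts per time point.

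Most cell type markers matched the labels. All 10 Pre-B markers were lower in every 48h library than in every 0h library, with sums of 325 to 351 at 0h and 42.8 to 51.0 at 48h on the scale explained next. Of 10 macrophage markers, 8 were higher in every 48h library, with sums of 9.65 to 11.3 at 0h and 415 to 522 at 48h. The exceptions were Adgre1, at 0, 0 and 0.386 at 48h, and Mrc1, whose 48h values of 0.559, 1.04 and 1.13 overlapped those of 0h. Markers of T cells and erythroid cells summed to at most 0.671 in any library, and those of fibroblasts were at 0. TPM hold no record of depth. A ribosomal RNA locus took 70.3 to 82.9% of each library's TPM, so all other genes have low values. Libraries were therefore compared on scaled TPM, the TPM divided by a size factor for each library (the median of ratios to the average library), which ran from 0.628 to 1.56. At 1h most directions depend on whether the libraries are rescaled. Over 4 scalings, of which TPM as deposited is one, 54 of the 78 members took both signs. The members' median log2 change at 1h was -0.48 on scaled TPM and -0.42 with quantile normalization. It was -0.32 with rescaling without the 20 most abundant genes, and 0.155 on TPM as deposited. On the deposited scale the median over all genes tested moved by 0.59 at 1h, 0.34 at 12h and -0.18 at 48h in log2 units against 0h, and on the scaled values by 0.02, 0.07 and 0.07.

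Summed over the 78 genes, the level of the mitochondrial ribosomal protein genes went down at each time point. The sum was 445, 457 and 466 scaled TPM in the 0h libraries and 324, 328 and 335 in the 1h libraries. At 12h it was 254, 257 and 284, and at 48h it was 200, 202 and 233. No library of one time point overlapped with a library of another, and the 48h mean, 211 ± 18.4 (SD, n = 3), was 0.463 of the 0h mean, 456 ± 10.8 (SD, n = 3). In deposited TPM the sums at 0h and 1h were in the opposite order, 424 ± 33.6 and 483 ± 34.2 (SD, n = 3 each), so that a direction at 1h rests on the scaling, whereas 313.5 ± 61.4 at 12h and 148 ± 24.95 at 48h were below 0h on both scales. In bulk RNA, fewer cells of a type and less RNA per cell cannot be told apart.

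**Figure D1:**
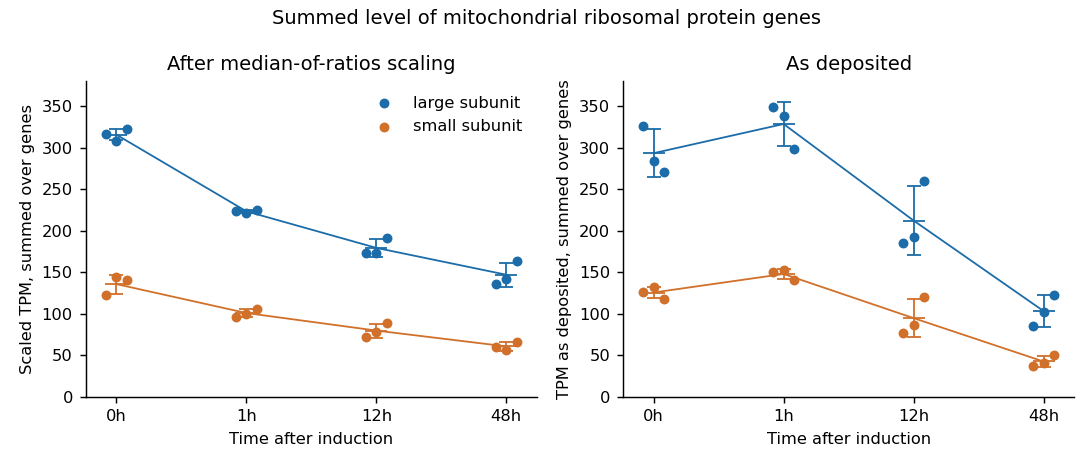
Summed level of the genes of the large subunit (blue) and small subunit (orange) at 0h, 1h, 12h and 48h, in scaled TPM on the left and TPM as deposited on the right. Points are libraries, lines join the means and bars are the SD of 3 libraries. On the left both subunits go down at each time point, from 315 to 147 for the large and from 136 to 60.6 for the small subunit, whereas on the right the 1h means lie above those of 0h.

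Both subunits moved together. The large subunit summed to 315 ± 6.76 scaled TPM at 0h and 147 ± 14.3 at 48h, and the small subunit to 136 ± 11.4 and 60.6 ± 5.12 (SD, n = 3 each). The ratio of the large to the small sum, which no scaling can change, was 2.34 ± 0.22, 2.22 ± 0.11, 2.26 ± 0.12 and 2.42 ± 0.13 in the order of the time points (SD, n = 3 each). These ratios differed by no more than the spread between the 0h libraries, which ran from 2.15 to 2.58.

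Members were present at unequal levels, which TPM make comparable because they are per length. At 0h the mean ran from 1.00 to 22.1 scaled TPM with a median of 4.97 over the members, and at 48h from 0.416 to 12.1 with a median of 2.14. The members with the highest mean over the 12 libraries were Mrpl52 (a mitochondria-specific protein of the large subunit), Mrps21 (small subunit) and Mrpl30 (large subunit), all with a mean of at least 10.2 scaled TPM. The lowest were Mrpl55, Mrps30 and Mrpl50, all of the large subunit, at 1.17, 1.29 and 1.31. Over the 78 members, the log2 means at 0h and 48h had a Pearson correlation of 0.648, a description across genes that share the same libraries.

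The comparison of 48h with 0h asked how these genes stood in macrophage-like cells. By limma on log2(scaled TPM + 0.1), with p-values adjusted by the Benjamini-Hochberg method over all genes tested and a call at an adjusted p under 0.05, 59 of the 78 members fell and none rose, while 22.0% of all genes tested fell and 24.5% rose. At an unadjusted p under 0.05, 62 were lower and 1 higher. The median log2 fold change was -1.31 over the members and 0.07 over all genes, and 73 members had a value below 0. With a change beyond -1 asked for as well, 49 members fell, against 17.6% of all genes. On TPM as deposited 65 fell, against 27.2% of all genes, and the 59 were among them. All 4 ways of scaling the libraries that were tried called 57 members lower. In the large subunit 39 of 51 fell with a median of -1.38, and in the small subunit 20 of 26 with a median of -1.24. Of the 47 listed with a bacterial counterpart 33 fell (median -1.15), and of the 30 ribosomal members not so listed 26 fell (median -1.43). This difference was not tested.

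**Figure D2:**
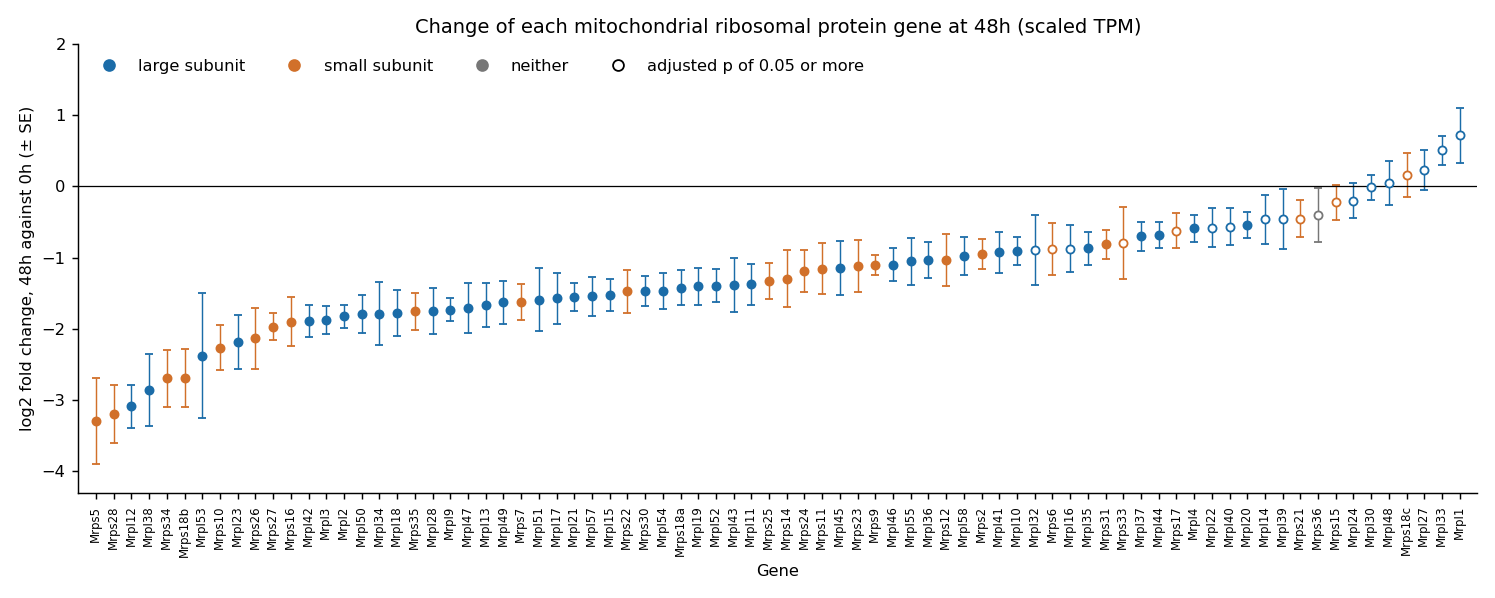
Log2 fold change at 48h against 0h of each of the 78 genes, in order of size, with its SE from limma on scaled TPM. Blue is the large subunit, orange the small subunit, grey neither, and open symbols have an adjusted p of 0.05 or more. The changes run from -3.29 for Mrps5 to 0.72 for Mrpl1, and no symbol above 0 is filled.

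The 6 steepest falls at 48h reached both subunits. Mrps5, which sits at the messenger RNA entry of the small subunit, was at 10.4, 10.9 and 11.9 scaled TPM at 0h and at 0.303, 0.976 and 3.31 at 48h, a log2 fold change of -3.29 ± 0.60 (SE, limma adjusted p = 0.000872). Its 48h libraries differed among themselves by more than those of 0h, and all lay below the 0h libraries. Mrps28, another small-subunit protein, was at 2.60, 4.84 and 6.18 at 0h and at 0.253, 0.271 and 0.725 at 48h, a change of -3.20 ± 0.41 (SE, limma adjusted p = 6.18e-05).

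Mrpl12 belongs to the stalk of the large subunit, the arm that brings in the translation factors. Its scaled TPM were 12.0, 12.4 and 14.2 at 0h, 7.54, 7.86 and 8.63 at 1h, 3.98, 4.45 and 4.74 at 12h, and 0.739, 1.66 and 2.32 at 48h. On this scale each time point lay wholly below the one before it, but the 1h change was not called and was -0.02 on TPM as deposited. The change was -1.53 ± 0.30 at 12h (SE, limma adjusted p = 0.00285) and -3.08 ± 0.30 at 48h (SE, limma adjusted p = 8.04e-06). Reads of Gm16755, an opposite-strand gene that overlaps an exon of Mrpl12, cannot be told apart from it, since the library kit does not mark strand. Mrpl10, to which the stalk protein binds, went from a mean of 5.34 to 2.86 scaled TPM, a smaller log2 change of -0.91 ± 0.19 (SE, limma adjusted p = 0.00236).

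Mrpl38 and Mrps34 are proteins that bacteria lack. Mrpl38 was at 5.68, 5.93 and 6.67 scaled TPM at 0h and at 0.195, 1.34 and 1.37 at 48h (log2 change -2.85 ± 0.50 SE, limma adjusted p = 0.000696). Mrps34 was at 4.37, 5.06 and 5.91 at 0h and at 0.307, 0.733 and 1.41 at 48h (-2.69 ± 0.40 SE, limma adjusted p = 0.000219). Exons of Mrps34 overlap Nme3 on the same strand and Mapk8ip3 on the other, so its level is uncertain.

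The 3 paralogs that descend from a single bacterial gene, Mrps18a, Mrps18b and Mrps18c, did not move alike. Mrps18a is built into the large subunit, and the other two hold one place each in the small subunit. Mrps18b was at 7.08, 7.67 and 8.07 scaled TPM at 0h, still at 5.95, 7.97 and 7.98 at 1h, and at 0.479, 1.19 and 2.22 at 48h. Its log2 change was -2.68 ± 0.41 at 48h against 0h (SE, limma adjusted p = 0.000237) and -2.13 ± 0.41 at 48h against 12h (SE, limma adjusted p = 0.00309), and its change from 0h to 12h was -0.56 ± 0.41 (SE, limma adjusted p = 0.337). Mrps18a already fell at 12h. Its 0h mean was 11.4, against 4.46 and 4.35 at 12h and 48h, and the changes were -1.36 ± 0.25 at 12h (SE, limma adjusted p = 0.00168) and -0.06 ± 0.25 from 12h to 48h (SE, limma adjusted p = 0.917). Mrps18c was at 3.76, 4.16 and 6.81 at 0h and at 4.20, 5.51 and 6.41 at 48h, and these libraries overlapped. Its change of 0.16 ± 0.31 (SE, limma adjusted p = 0.722) turns to -0.25 on TPM as deposited and to -0.02 without 0h replicate 2. The differences between the paralogs were not themselves tested.

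**Figure D3:**
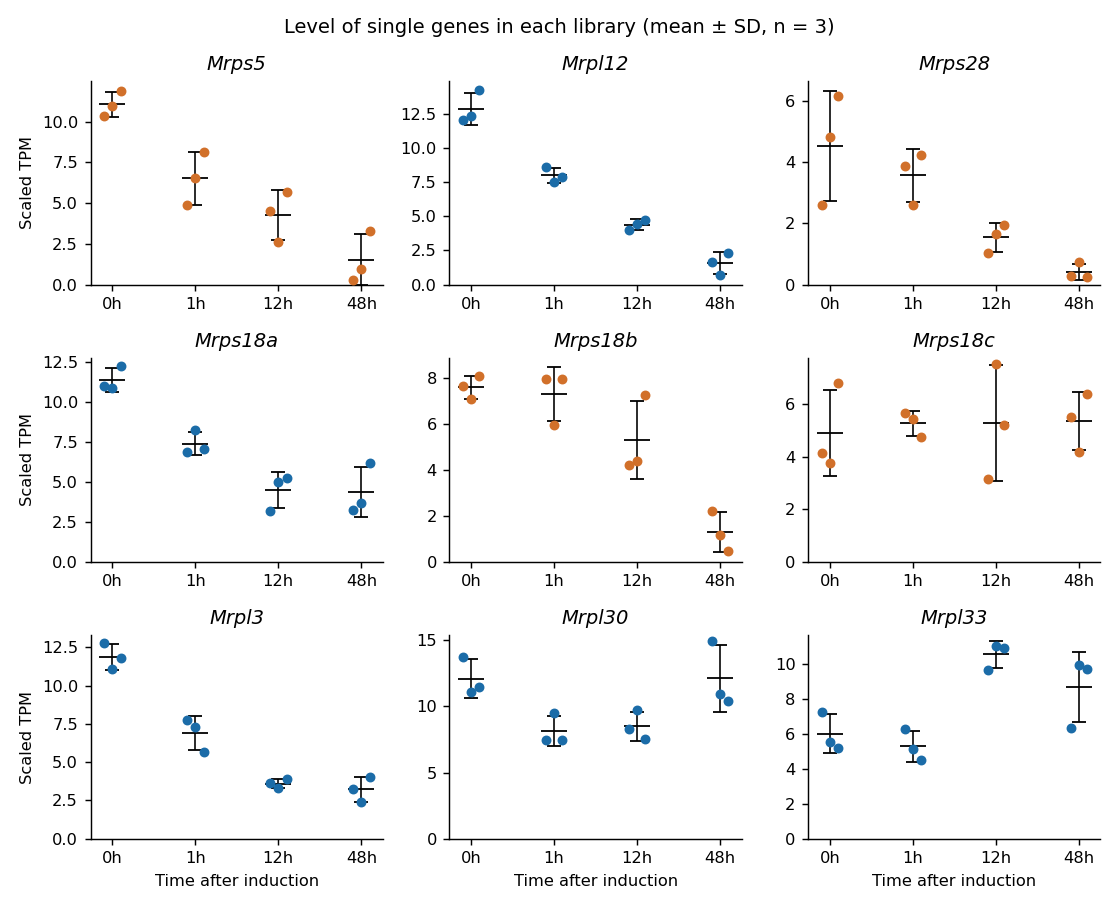
Scaled TPM of 9 genes in each library at 0h, 1h, 12h and 48h, with the mean and SD of 3 libraries in black. Each panel has its own axis from 0, with small-subunit genes in orange and large-subunit genes in blue. Mrps5, Mrpl12 and Mrps28 drop to a 48h mean of at most 1.57, and the mean of Mrps18b drops most from 12h to 48h. Mrps18c and Mrpl30 have similar means at 0h and 48h, and Mrpl33 is highest at 12h.

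Members named here for the catalytic core and the exit tunnel of the large subunit were chosen by role. They fell to unequal degrees by 48h, but other proteins of these regions were not counted. Mrpl22 and Mrpl24, also of the large subunit, were called at no time point against 0h. Mrpl2 and Mrpl3, both near the centre where peptide bonds are made, fell by 1.82 and 1.88 on the log2 scale. Mrpl2 was tight, at 6.82, 6.91 and 8.23 scaled TPM at 0h and at 1.94, 1.99 and 2.02 at 48h. Mrpl23 and Mrpl4 line the exit tunnel or its mouth. Mrpl23 was at 5.21, 6.75 and 8.82 at 0h and at 1.00, 1.53 and 1.83 at 48h (log2 change -2.18 ± 0.38 SE, limma adjusted p = 0.000596). A processed copy, Mrpl23-ps1, was listed at 4.43 to 10.4 scaled TPM at 0h and 1.97 to 2.47 at 48h, so the split of reads between them is uncertain. Mrpl4 changed less, by -0.59 ± 0.19 (SE, limma adjusted p = 0.0241), from 5.12, 5.82 and 6.16 to 2.98, 3.53 and 5.002, and it lost the call in 5 of the alternatives (adjusted p up to 0.108).

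In the small subunit, Mrps12 and Mrps7, chosen by role, were also called lower at 48h, and the decoding side was not counted as a set. Mrps12, at the decoding centre, went from a 0h mean of 3.33 ± 0.379 scaled TPM to a 48h mean of 1.74 ± 1.03 (SD, n = 3 each). One 48h library, replicate 1 at 2.92, lay within the 0h range of 2.89 to 3.59. The log2 change of -1.03 ± 0.36 (SE, limma adjusted p = 0.0361) lost its call in 6 alternatives, with adjusted p from 0.00292 to 0.142 over all of them. Mrps7, in the head of the small subunit, was at 4.48, 4.597 and 5.83 at 0h and at 1.16, 1.29 and 2.38 at 48h (-1.63 ± 0.25 SE, limma adjusted p = 0.00027).

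Among members not listed with a bacterial counterpart, Mrpl58, an enzyme that frees stalled ribosomes, went from 4.23, 7.40 and 8.75 scaled TPM to 2.92, 3.25 and 3.65 (log2 change -0.97 ± 0.26 SE, limma adjusted p = 0.00988). Mrps30 was low and uniform at 48h, at 0.652, 0.669 and 0.683 against 1.79, 1.91 and 2.42 at 0h (-1.47 ± 0.21 SE, limma adjusted p = 0.000142). Mrpl50 fell by 1.79 and Mrpl52 by 1.39 on the log2 scale. Mrpl41, at 3.83, 3.87 and 6.58 at 0h and 1.67, 2.18 and 3.68 at 48h, fell by 0.92 (limma adjusted p = 0.02), and Mrpl55, of the bacterial set, fell by 1.05 (limma adjusted p = 0.0218). Each lost the call in 4 alternatives, with adjusted p of up to 0.0988 and 0.0902.

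At 48h 19 members were not called, and 15 were called at no time point against 0h, among them Mrpl1, Mrpl24, Mrpl27, Mrps15 and Mrps36. Mrpl30 was at 11.1, 11.4 and 13.8 scaled TPM at 0h, at 7.47, 7.49 and 9.47 at 1h, and again at 10.4, 10.9 and 15.0 at 48h. The 1h change on scaled TPM was -0.57 (limma adjusted p = 0.0655), and on TPM as deposited it was 0.09, with 9.94, 11.64 and 14.48 TPM at 1h overlapping the 9.61, 10.22 and 14.19 at 0h. Its 48h change of -0.01 ± 0.17 (SE) took either sign when single libraries were left out. Mrps21 had a log2 change of -0.45 ± 0.26 (SE, limma adjusted p = 0.177) and was called lower on TPM as deposited (-0.86, limma adjusted p = 0.0423). For Mrps36, the member outside the ribosome, the change was -0.40 ± 0.37 (SE, limma adjusted p = 0.415), from a mean of 5.21 to one of 3.83. Mrpl1 was at 0.747, 0.891 and 1.37 at 0h and at 0.958, 1.90 and 2.50 at 48h, 0.72 ± 0.38 (SE, limma adjusted p = 0.15), and was called higher only when 48h replicate 3 was left out (adjusted p = 0.0295 by limma).

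Mrpl33, a short protein of the large subunit, was on scaled TPM the one member called higher at any time point against 0h. It was at 5.19, 5.56 and 7.29 scaled TPM at 0h, at 4.49, 5.17 and 6.27 at 1h, at 9.70, 10.96 and 11.06 at 12h, and at 6.36, 9.74 and 9.95 at 48h. The 12h libraries lay above all libraries of 0h and 1h. Its log2 change at 12h was 0.82 ± 0.20 (SE, limma adjusted p = 0.011) and 1.15 on TPM as deposited, and it kept the call in all alternatives that keep the threshold on adjusted p alone, with limma adjusted p from 0.00395 to 0.0463. At 48h it was 0.51 ± 0.20 (SE, limma adjusted p = 0.0619). This 48h value passed the threshold with genes under a mean TPM of 1 left out and without 0h replicate 1 or 48h replicate 1, but was 0.10 on TPM as deposited. Gm43809 overlaps Mrpl33 exons on the same strand.

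At 12h 35 members fell and 1 rose, against 14.5% and 16.0% of all genes tested. The median log2 fold change was -0.83 over the members and 0.07 over all genes. TPM as deposited gave 15 lower and 1 higher, against 7.82% and 22.3% of all genes, and all 15 were among the 35. The sign of the change was below 0 under all 4 scalings for 65 members and changed with the scaling for 9. In the large subunit 25 of 51 fell and in the small subunit 10 of 26. Of the 35 members called lower at 12h, 32 were also called lower at 48h, and 27 members were called lower at 48h alone. A missing call at 12h does not show that a member had not fallen, since 74 members were below 0 at 12h.

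The 6 largest falls at 12h were those of Mrps34, Mrpl17, Mrpl3, Mrpl47, Mrpl13 and Mrpl12, and all 6 were also called on TPM as deposited. Mrpl3 was at 11.1, 11.8 and 12.8 scaled TPM at 0h, 5.65, 7.30 and 7.78 at 1h, and 3.30, 3.63 and 3.89 at 12h, with -1.69 ± 0.19 at 12h (SE, limma adjusted p = 6.72e-05). From 12h to 48h it changed by -0.18 ± 0.19 (SE, limma adjusted p = 0.56), and on TPM as deposited it fell by 0.91 (limma adjusted p = 0.0172). Mrpl17 was at 12.1, 13.9 and 15.4 at 0h, and at 3.01, 3.55 and 6.36 at 12h (-1.72 ± 0.36 SE, limma adjusted p = 0.00395). Mrpl47 and Mrpl13 fell by 1.66 and 1.64 on the log2 scale, and Mrps34 by 1.94. Exons of Mrpl13 overlap Mtbp and those of Mrpl47 overlap Actl6a and Ndufb5 on the opposite strand, and their reads could not be separated by strand.

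Between 12h and 48h 15 members fell and none rose, against 11.9% and 10.5% of all genes. At an unadjusted p under 0.05, 26 were lower and 1 higher. Without 12h replicate 2 the count was 9, and with only the 6 libraries of these time points in the model it was 2. TPM as deposited called 51 lower, against 31.7% of all genes. Mrps18b, Mrps5, Mrpl38, Mrpl23, Mrps28 and Mrpl12 were among the 15 on scaled TPM, with log2 changes from -2.13 to -1.55. Mrpl3, Mrpl13, Mrpl17, Mrpl47 and Mrps18a, most of them named for their low values at 12h, lay between -0.18 and 0.155 on scaled TPM and between -0.91 and -0.57 on TPM as deposited, where Mrpl3 was called lower and Mrpl17 changed sign.

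At 1h the result depends on the scale. On scaled TPM 3 members, Mrpl21, Mrpl3 and Mrpl2, fell and none rose, against 4.92% and 5.42% of all genes tested, and 24 were lower and 0 higher at an unadjusted p under 0.05. The count of 3 went to 1 without 0h replicate 3, 1h replicate 2 or 1h replicate 3, to 6 without 48h replicate 1 and to 5 without 48h replicate 3. The median was -0.48 over the members and 0.02 over all genes, and 72 members were below 0. On TPM as deposited none fell (0 also at an unadjusted p under 0.05) and 5 rose (Mrpl1, Mrpl20, Mrpl35, Mrpl37 and Mrps9, named after their values were seen), against 1.41% and 24.1% of all genes, with medians of 0.155 and 0.59. The distance of the members' median from that of all genes was -0.50 on scaled TPM and -0.44 on the deposited scale. Mrpl21 was at 6.01, 7.32 and 7.97 scaled TPM at 0h and at 2.84, 3.43 and 3.77 at 1h (-1.06 ± 0.20 SE, limma adjusted p = 0.00581), and -0.42 on TPM as deposited. The change of Mrpl2, -0.58 ± 0.15 (SE, limma adjusted p = 0.0374), was 0.07 on TPM as deposited, and that of Mrpl3, -0.78 ± 0.19 (SE, limma adjusted p = 0.0256), was -0.13.

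On scaled TPM 68 of 78 members had their highest mean at 0h and 61 their lowest at 48h, whereas 27.8% and 30.7% of all genes tested did. The mean fell in order from each time point to the next for 47 members and for 14.5% of all genes. On TPM as deposited 58 members were highest at 1h, as were 54.1% of all genes, and 76 were lowest at 48h, as were 49.0%.

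Other genes of mitochondrial translation were read from lists of known roles, against a background of 22.0% of all genes tested that fell and 24.5% that rose at 48h. All 5 mitoribosomal proteins without an Mrp symbol fell at 48h, with a median log2 fold change of -1.49. Gadd45gip1, in the large subunit, fell by 2.46 (3.02 ± 0.734 to 0.495 ± 0.260 scaled TPM), Dap3, a GTP-binding protein of the small subunit, by 1.69 and Chchd1 by 1.49 (SD, n = 3). Of 14 translation factors 7 fell and none rose at 48h (8 lower and 0 higher at an unadjusted p under 0.05 by limma), with a median of -0.81. Tufm and Tsfm, both elongation factors, fell by 2.38 and 1.90, and Lrpprc, which stabilizes mitochondrial messenger RNA, by 1.98.

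Of 24 genes of ribosome assembly and ribosomal RNA maturation, 10 fell and 1 rose at 48h (22.0% and 24.5% of all genes tested), with a median of -0.83. C1qbp, a matrix protein needed for mitochondrial translation, went from 27.02 ± 1.40 scaled TPM at 0h down to 1.24 ± 0.603 at 48h, by way of 17.5 ± 1.45 and 7.26 ± 0.556 (SD, n = 3 each). Its 1h change was not called and turned from -0.63 to 0.03 on TPM as deposited. At 48h it had a log2 change of -4.45 ± 0.28 (SE, limma adjusted p = 2.2e-07). This was larger than the change of any member. Mrm1, a methyltransferase of ribosomal RNA, fell by 2.06 and Tfb1m, which dimethylates the RNA of the small subunit, by 1.37. Ddx28, an RNA helicase of large-subunit assembly, rose by 0.77 ± 0.24 (SE, limma adjusted p = 0.0199), a call lost on TPM as deposited (0.39).

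Of 17 mitochondrial aminoacyl-tRNA synthetases 13 fell and none rose at 48h, when 22.0% of all genes tested fell and 24.5% rose (13 lower and 0 higher at an unadjusted p under 0.05 by limma), with a median of -1.38. Tars2 and Vars2, which charge the transfer RNAs for threonine and valine, fell by 2.31 and 2.29 on the log2 scale. Of 13 regulators of mitochondrial transcription and biogenesis, 12 could be tested and 7 fell at 48h. Ppargc1a was listed at 0 in all libraries. Pprc1, a coactivator of this program, fell by 1.97, and Tfam, which packages and transcribes mitochondrial DNA, by 1.60. Myc went from 32.3 ± 1.63 to 15.2 ± 0.826 scaled TPM at 1h (SD, n = 3 each) and fell at 1h by 1.09 (limma adjusted p = 0.000643), a call lost on TPM as deposited, and at 48h by 1.38. At 12h 4 of the 5 further ribosomal proteins fell, as did 4 factors, 4 assembly genes, 4 synthetases and 6 regulators, and 1 assembly gene, Ddx28, rose, when 14.5% of all genes fell and 16.0% rose. The share of the 24 assembly genes that fell was thus near that of all genes. On TPM as deposited 0, 2, 1, 0 and 3 of these lists' genes fell by limma, against 7.82% of all genes, and for the lists with 0 calls 2 further ribosomal proteins and 4 synthetases were lower at an unadjusted p under 0.05.

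**Figure D4:**
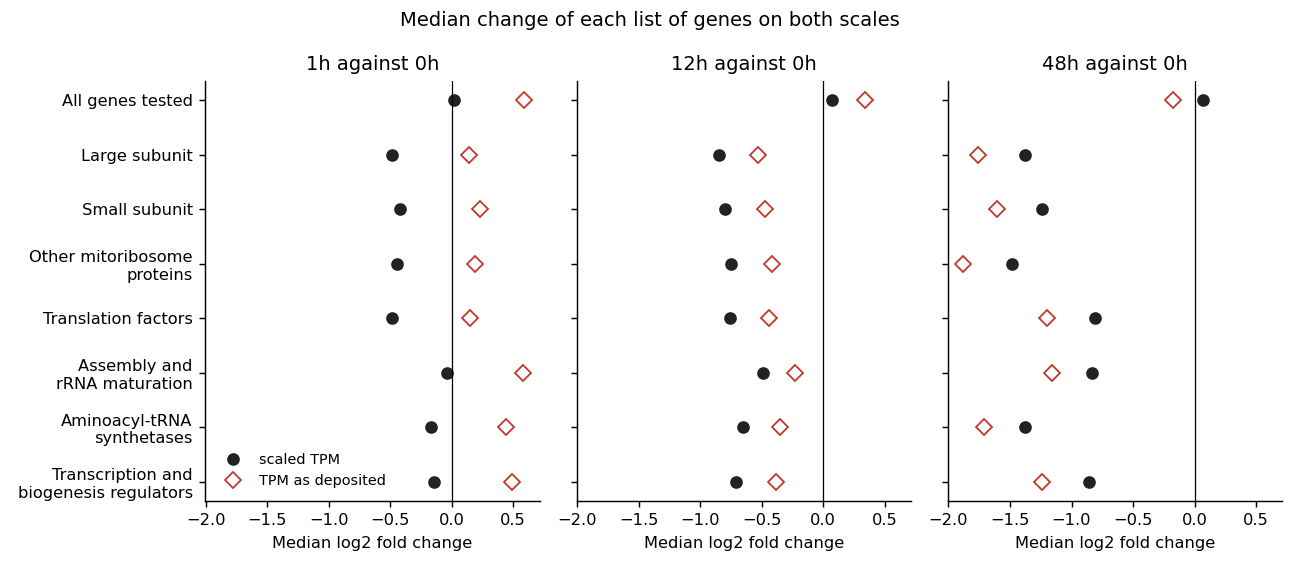
Median log2 fold change of each list of genes at 1h, 12h and 48h against 0h, with filled black circles for scaled TPM and open red diamonds for TPM as deposited. At 48h all 7 lists of mitochondrial genes lie below all genes tested on both scales, with scaled medians from -1.49 to -0.81 against 0.07, and at 1h each list is on the other side of 0 on the deposited scale.

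The ribosomal RNAs of the mitoribosome had higher means at 48h than at 0h. For mt-Rnr1, the RNA of the small subunit, the scaled TPM were 8329, 9992 and 11876 at 0h and 10796, 27878 and 28993 at 48h, so that the groups overlapped. The low 48h value is that of replicate 3, which also had a smaller share of TPM in the ribosomal RNA locus, 75.7% against 82.7 and 82.9% in the other 48h libraries. Replicate 3 had the lowest such share at the earlier time points too, 76.9% at 0h, 70.3% at 1h and 72.8% at 12h. It also had the lowest mt-Rnr1 value at each time point. Within each replicate number, mt-Rnr1 was higher at 48h than at 0h. The libraries had been depleted of ribosomal RNA, and the part of that step in these values was not tested. Without 48h replicate 3, 57 members fell at 48h with a median of -1.34.

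The choice by symbol used neither position nor promoter sequence, and the shares of members with a feature of either kind were not tested. All 78 are annotated as protein coding in GENCODE M21 (mouse GRCm38) and lie on 17 chromosomes, with at most 11 on one. For 18 of them (23.1%) another protein-coding gene starts within 1000 bases on the opposite strand and points away, as for 1241 of 11294 protein-coding genes tested. Of these neighbours 17 could be tested. At 48h 7 fell, 4 rose and 6 were not called, when 22.0% of all genes tested fell and 24.5% rose, and for 5 pairs both genes fell. Mrps12 and Sars2, the mitochondrial seryl-tRNA synthetase, start 172 bases apart and fell by 1.03 and 1.80. Mrps18b and Ppp1r10, a regulatory subunit of a nuclear phosphatase, start 45 bases apart, and while Mrps18b fell by 2.68 Ppp1r10 rose by 1.40 (limma adjusted p = 7.96e-05). Mrpl30 and Mitd1 start 66 bases apart, and Mitd1 rose by 2.27 (limma adjusted p = 3.8e-05) while Mrpl30 had no call. Exons of 33 members overlap an exon of another gene. Of these 26 fell at 48h (median -1.40), as did 33 of the other 45 (median -1.12). Of the members described above, Mrpl3 and Mrps18c overlap an unnamed gene model on the same strand, and Mrpl10, Mrpl21, Mrpl58, Mrps7, Mrps18b and Mrps30 overlap other genes on the opposite strand, so their values may include reads of those genes.

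Promoter windows from RefSeq (GRCm38.p6), of 250 bases before to 50 after a gene's first listed start, were at hand for 69 members. Factors of the ETS family such as GABP, NRF1 and YY1 are known to act on nuclear genes for mitochondrial proteins, and the letters of their core motifs were searched on both strands. The ETS letters CCGGAAG stood in 25 of 69 windows (36.2%), in 19.1% of the windows of 9515 genes tested and in 9.1% of all 27025. The YY1 letters AAGATGGC stood in 12 (17.4%, against 5.0% and 2.9%) and the NRF1 letters GCATGCGC in 8 (11.6%, against 5.5% and 2.8%). At least 1 of these motifs was present in 37 windows (53.6%) and in 2573 of the 9515 of genes tested. ETS and YY1 letters occurred together in 3 members and overlapped in none. Of 30 ETS matches in members, 27 began within 100 bases of the start, as did 1726 of 2241 in genes tested.

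Other letters were no more common in members than in genes tested. CCAAT (NFY) stood in 39.1% against 39.3%, CACGTG (E-box) in 7.2% against 10.2% and GGGCGG (SP1) in 49.3% against 62.4%. TGACGTCA (CRE) stood in 2.9% against 3.3%, and TATAAA, the letters bound by TBP, in 5.8% against 7.2%. The median GC content was 58.3% in members and 60.3% in genes tested. At 48h 29 of the 37 members with ETS, NRF1 or YY1 letters fell, with a median of -1.39, and 21 of the 32 without them, with a median of -1.001. This difference was not tested, and a match of letters is not a measured site.

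**Figure D5:**
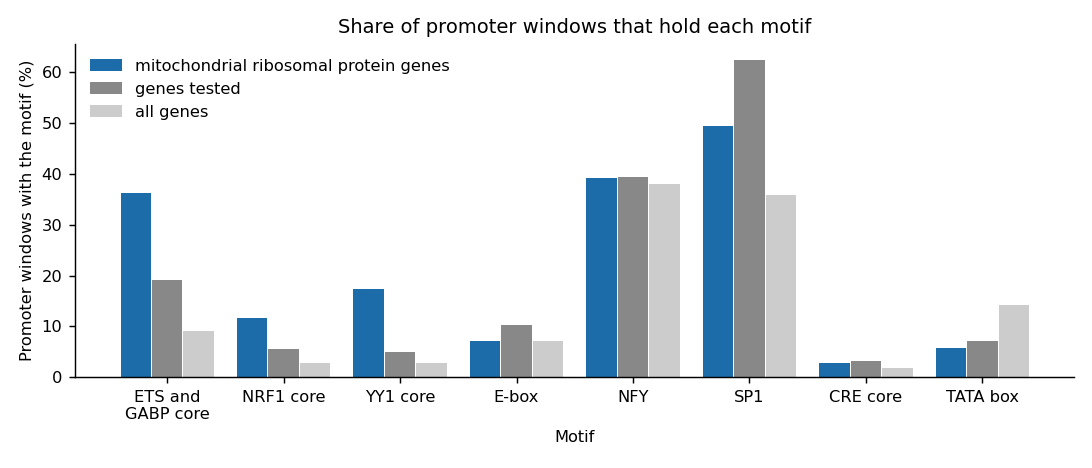
Share of promoter windows with each motif for 69 mitochondrial ribosomal protein genes (blue), 9515 genes tested (dark grey) and all 27025 genes (light grey), in percent. The blue bar is above both others for the ETS, NRF1 and YY1 motifs, at 36.2, 11.6 and 17.4%, and below the dark grey bar for the E-box and SP1.

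The stretch from 130 bases before to 30 after the RefSeq start is given for 5 members, to show how these letters sit. The values of all but Mrps27 were described above. Capitals mark the ETS, NRF1 or YY1 letters on either strand, and all run 5′ to 3′ in the direction of the gene. Mrps18a (chr17:46110874-46111033, plus strand) and Mrps27 (chr13:99344656-99344815, plus strand), a small-subunit protein that fell by 1.97 at 48h and was chosen after its values were seen, carry ETS letters before and YY1 letters after the start. Mrpl3 (chr9:105053138-105053297, plus strand) carries ETS letters alone. In Mrpl33 (chr5:31613821-31613980, plus strand), the member that rose at 12h, ETS letters follow NRF1 letters at the start. Mrpl12 (chr11:120484507-120484666, plus strand), with one of the steepest falls, has none of these letters.
Mrps18a: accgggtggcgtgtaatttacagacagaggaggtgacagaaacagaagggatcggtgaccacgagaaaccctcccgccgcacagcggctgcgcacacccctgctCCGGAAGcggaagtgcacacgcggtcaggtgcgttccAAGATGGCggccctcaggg
Mrps27: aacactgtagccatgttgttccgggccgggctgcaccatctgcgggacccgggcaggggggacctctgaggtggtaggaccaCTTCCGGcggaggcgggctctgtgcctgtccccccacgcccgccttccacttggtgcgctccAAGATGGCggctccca
Mrpl3: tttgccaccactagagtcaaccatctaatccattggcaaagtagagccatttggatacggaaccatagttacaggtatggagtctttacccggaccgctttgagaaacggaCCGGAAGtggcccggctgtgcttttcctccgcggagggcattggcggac
Mrpl33: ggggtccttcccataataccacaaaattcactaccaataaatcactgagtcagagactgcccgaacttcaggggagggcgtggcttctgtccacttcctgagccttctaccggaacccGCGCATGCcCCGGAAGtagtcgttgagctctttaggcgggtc
Mrpl12: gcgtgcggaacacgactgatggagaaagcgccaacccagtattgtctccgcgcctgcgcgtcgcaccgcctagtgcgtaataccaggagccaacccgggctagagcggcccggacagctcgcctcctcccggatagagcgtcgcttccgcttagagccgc
The ETS letters begin 26 bases before the start in Mrps18a, 48 in Mrps27, 19 in Mrpl3 and 3 in Mrpl33. The YY1 letters begin at base 12 after the start in Mrps18a and at base 15 in Mrps27.

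Promoter contacts were counted over baits, the captured restriction fragments, that hold a start of the gene. Each time point had 1 list, merged from 2 replicates by the study, so the counts have no replicate error and no test was made. Of the 78 members 76 had a bait. The median number of contacts was 7.5, 6, 5.5 and 5 from 0h to 48h, and for 10319 protein-coding genes tested it was 8, 7, 7 and 7. For the 40 members with a bait that holds no start of another protein-coding gene the medians were 8.5, 6, 5.5 and 8.5, so the lower median at 48h was not seen in them. Contacts were also summed over genes, so those of a bait shared by several genes were counted more than once. Of the 828 contacts of members at 0h counted in this way, 61.4% were listed again at 1h, 56.6% at 12h and 59.9% at 48h. For the genes tested the shares were 60.1, 54.3 and 55.0%.

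Single members showed no common course of contacts. Mrpl12 had 23, 27, 26 and 25 contacts from 0h to 48h while its level fell at 12h and 48h, and 16 of the contacts at 0h were listed again at 48h. Mrpl38 had 23, 20, 14 and 12, and Mrps18b 24, 30, 21 and 16. Mrps18c, with no call, had 29, 42, 39 and 32. Mrps5 had 1 contact at each time point, and Mrpl33 had 15, 25, 26 and 38.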

How the data were processed

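The 78 genes and the other lists were chosen with earlier results of these data known. C10 cells gave 12 RNA-seq libraries, 3 biological replicates per time point. Per the labels and the study's methods, RNA was depleted of ribosomal RNA and made into libraries with a kit that does not mark strand. The authors trimmed reads with Trim Galore 0.6.2, aligned them to mm10 with HISAT2 2.1.0 and counted exons with featureCounts, and RSEM is named in the submitters' processing notes. They deposited TPM per gene, with technical replicates merged, and TPM hold no depth. Of the deposited Promoter Capture Hi-C lists, made by CHiCAGO, the 0h list holds a score for each contact and the others whole numbers of unclear kind, and only the presence of a contact was used. Hi-C data were not analysed here.

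TPM were divided by median-of-ratios size factors over 11246 genes above 0 in every library. Genes with a mean of at least 0.1 TPM were tested on log2(scaled TPM + 0.1) with limma 3.58.1 in R 4.3.3 (all libraries, mean-variance trend), so fold changes are on that scale and understate the change of low genes. A call is a Benjamini-Hochberg adjusted p under 0.05 over all genes tested. Tables were made in Python 3.11.15 with pandas 2.3.3, and plots with matplotlib 3.10.9. On simulated data for 48h against 0h (16415 genes), 42% of 100 genes changed by 1 and 82% of 100 changed by 2 on the log2 scale were recovered, with 9 unchanged genes called. The changed genes all had a mean TPM of at least 1, and no others were changed. In the real comparison 22.0% of genes were called lower and 24.5% higher. The simulated shares therefore do not give the sensitivity of the real comparison.

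Named members are the 6 largest called changes each way in each comparison with 0h (mean TPM of at least 1, no overlap between groups), the 3 highest and 3 lowest by level, members listed by role, up to 5 called in no comparison, and in the other lists the 3 largest called changes at 48h. One gene that this rule names is not reported here. Alternatives were TPM as deposited, quantile normalization, rescaling without the 20 most abundant genes, other pseudocounts and filters, no trend, only the libraries compared, the replicate number as a block, thresholds on the change, and each library left out.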

Additional observations from a re-analysis of the deposited data

How the results depend on the processing

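The 48h falls kept their direction and stayed within 1.5 times the count of 59 in every alternative except a change beyond 2 on the log2 scale, which left 10. On TPM as deposited, members called at 1h were 5 higher and 0 lower, at 12h 15 lower, and between 12h and 48h 51 lower. At 1h, 5 were lower with a mean TPM of at least 1 or a pseudocount of 1, 9 with only the 6 libraries compared, and 1 with quantile normalization or with rescaling without the 20 most abundant genes. A mean TPM of at least 1 also gave 1 higher at 48h against 0h (Mrpl33) and 1 higher at 48h against 12h (Mrpl30), and the 6 libraries compared gave 2 lower at 48h against 12h. With a change beyond 1, 1 fell at 1h, 0 rose and 23 fell at 12h, and 9 lower between 12h and 48h. Beyond 2 these were 0, 0, 0 and 1. Leaving out each library in turn gave 1 to 6 lower at 1h, 25 to 41 at 12h, 50 to 60 at 48h and 9 to 19 between 12h and 48h, with 0 to 1 higher in each comparison with 48h. At 48h the 1 higher was Mrpl33 (without 0h replicate 1 or 48h replicate 1) or Mrpl1 (without 48h replicate 3). The median of contacts over baits with no other start was 8.5 at 0h and 8.5 at 48h. Changes of sign were Mrpl2 at 1h (0.07 on TPM as deposited), Mrps18c at 48h (-0.247 on TPM as deposited and -0.022 without 0h replicate 2) and Mrpl30 at 48h (0.065 without 0h replicate 1, 0.064 without 48h replicate 2 and 0.096 without 48h replicate 3). With 1 library left out, Mrpl30 ranged from -0.148 to 0.096 and Mrps18c from -0.022 to 0.409. The cause was not tested. Over 39 values of single genes, 858 alternatives kept side and direction in 810, lost the call in 38, gained it in 4 and changed sign in 6.

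The replicate number as a block called 4 members lower at 1h, 39 at 12h (and 1 higher), 58 at 48h and 20 between 12h and 48h, with 0 higher in the others. Correlations of the deviations of samples with the same number ran from -0.0109 to 0.257 and were not all over 0.1 in any comparison. Not every sample correlated best with its own number, so the numbers were not taken as pairs. Replicate 3 was set apart, however. Its samples correlated with each other at 0.257 (1h against 0h), 0.0814 (12h against 0h), 0.252 (48h against 0h) and 0.195 (48h against 12h). With samples of other numbers they correlated below 0 in every case, from -0.183 to -0.014. The deviations sum to 0 over the 3 libraries of a time point. Positive values therefore bring negative ones with them, and the negative values add no support. By the positive correlations, samples of replicate 3 shared a deviation across time points, which the main fit did not model. The source of this deviation was not tested. TPM hold no depth, so no counting error could be given, and most members lie at a few TPM.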
